A study of Mus musculus with 2 samples.

Results

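The genes of 10 phosphodiesterases, enzymes that break down the second messengers cAMP and cGMP, were followed in islet cells of virgin and multiparous mice. The members were the rows of both count matrices with the symbols Pde1a, Pde1c, Pde3b, Pde4b, Pde4d, Pde5a, Pde7a, Pde8a, Pde8b and Pde10a, out of 31053 genes in all. Pde5a had been singled out earlier for its low level in multipara beta cells in these same data, so its difference there is given as a description and not as evidence.

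Cyclic AMP is made by adenylate cyclases downstream of G protein-coupled receptors, and in beta cells it amplifies glucose-stimulated insulin secretion through protein kinase A and the exchange factor EPAC2. Cyclic GMP is made by guanylate cyclases and acts mainly through protein kinase G and cyclic nucleotide-gated channels. Phosphodiesterases end both signals, and each family differs in which nucleotide it prefers and in how it is regulated.

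C57BL/6J wild-type females that entered the breeding scheme at 9 weeks of age and went through 3 pregnancies were sampled 3 weeks after the last delivery and set against virgin females of matched age. Islets of each group were dissociated with trypsin and made into 1 single-cell library with a 10x Chromium 3′ kit, which tags each captured RNA molecule with a unique molecular identifier (UMI). The labels do not say how many mice went into a library. With 1 library per group no test between the groups was possible, so every statement compares these 2 libraries, and every interval covers 95% counting error only, not the variation between mice.

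There were 5463 barcodes with 94853806 UMIs from virgin islets and 5075 barcodes with 82503776 UMIs from multipara islets, and 7 barcode sequences occurred in both. After the cell filter of the study and removal of called doublets, 4330 virgin and 3330 multipara cells remained. Cells were then assigned to types by the UMIs of hormones and marker genes, which placed 89.8% and 88.6% of them. There were 9 types that had at least 30 cells in each library and could be compared. The endocrine types were 1773 virgin and 1545 multipara beta-like cells, 1016 and 628 alpha-like cells, 232 and 222 delta-like cells, and 83 PP-like cells in each. The other types were 261 and 222 endothelial-like, 65 and 64 pericyte-like, 83 and 98 macrophage-like, 129 and 40 T cell-like, and 175 and 40 B cell-like cells. Of 16 marker genes that the assignment did not use, most were highest in the type they mark, with Mafa at 325 counts per 1000000 UMIs (CPM) in virgin beta-like cells against 4.83 CPM in alpha-like cells, Hhex at 357 CPM in delta-like cells and Cspg4 at 439 CPM in pericyte-like cells. Others separated the types less well. Iapp, at 43406 CPM in virgin beta-like cells, reached 25433 CPM in delta-like cells, the leukocyte gene Adgre5 was higher in endothelial-like (130 CPM) than in macrophage-like cells (72.5 CPM), and Vwf in endothelial-like cells was 51.5 CPM in the virgin but 7.64 CPM in the multipara library. Fcmr, highest in B cell-like cells, was at 37.8 CPM in virgin and 0 CPM in multipara T cell-like cells.

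Levels are given as CPM, the UMIs of a gene summed over all cells of a type in a library and scaled to 1000000 UMIs of those cells. A 3′ kit counts 1 tag per molecule whatever the transcript length, but how well a transcript is captured differs between genes, so a gene was compared only with itself across cells. The map of CPM by type shows that the members differed in their distribution over the islet. Pde5a, Pde10a and Pde3b were present in most beta-like cells, and Pde10a also in most alpha-like and delta-like cells. Pde4b was highest in vascular and immune cells, Pde1a in pericyte-like cells and Pde7a in T cell-like and B cell-like cells.

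**Figure D1:**
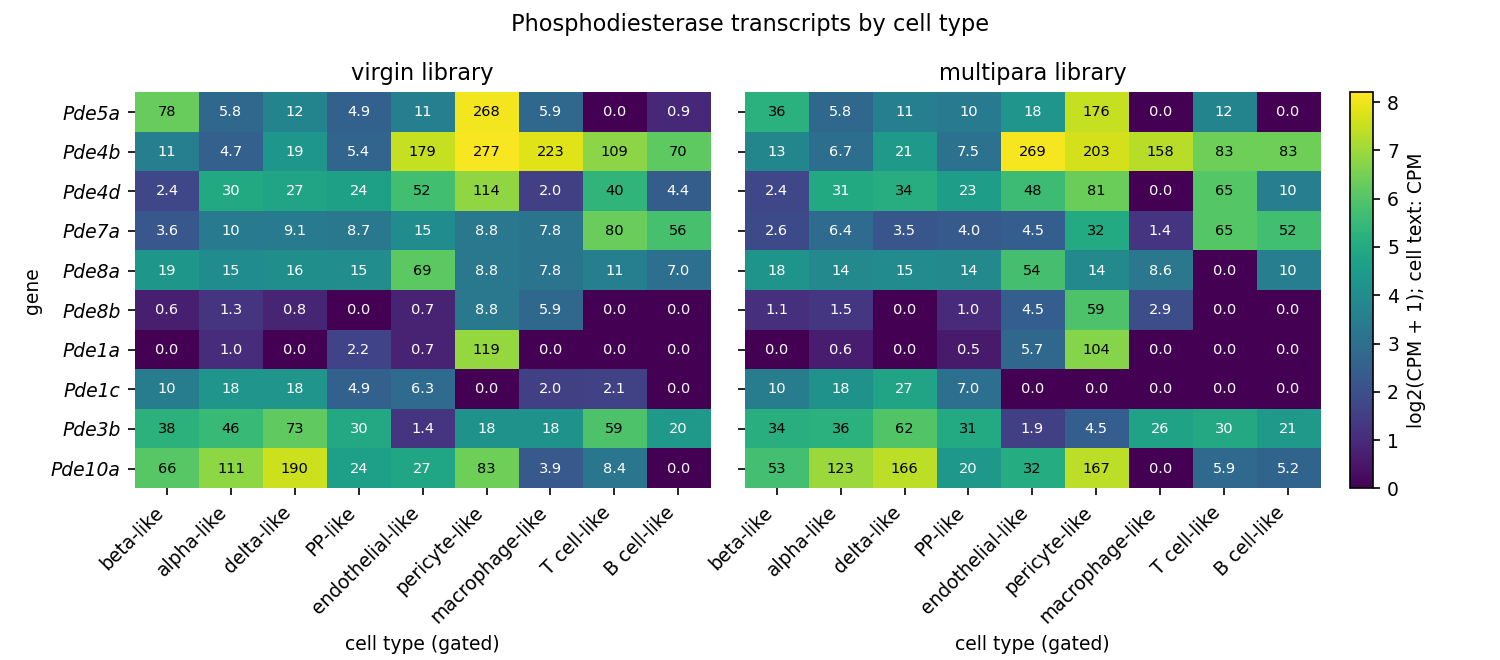
Level of each phosphodiesterase gene (rows) in each of 9 cell types (columns), virgin library left and multipara library right. Colour is log2(CPM + 1) and the text in each cell is the CPM. Pde5a stood at 78 CPM in virgin and 36 CPM in multipara beta-like cells, while its alpha-like level was 5.8 CPM in both.

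PDE5A is the cGMP-specific phosphodiesterase that sildenafil inhibits, best known from vascular smooth muscle. Its gene (ENSMUSG00000053965) lies on the plus strand of GRCm38 at chr3:122728947-122859374. Within the endocrine islet Pde5a was concentrated in beta-like cells. Their level was 77.7 CPM (75.3 to 80.2, 3996 UMIs) in the virgin library and 36.5 CPM (34.8 to 38.3, 1667 UMIs) in the multipara library. The multipara level was thus 53.0% lower, a log2 ratio of multipara over virgin of -1.09 (-1.17 to -1.01). In all beta-like cells 10913 genes had at least 100 UMIs over both libraries, and 3.48% of them were at least 1.5-fold lower in the multipara library. Since the gene was chosen from this contrast, nothing is read from where it falls in that background.

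In beta-like cells 1242 genes averaged 50 CPM or more over both libraries, and among them Pde5a had the sixth lowest ratio, and 5 genes were lower. These were the immunoglobulin gene Igkc at -6.51, the peptide hormone genes Pyy at -1.53, Ppy at -1.19 and Sst at -1.15, and the retinol carrier gene Rbp4 at -1.17. All 5 are products of other islet or immune cells, with Pyy at 122534 CPM in virgin PP-like cells and Rbp4 at 5621 CPM in virgin delta-like cells. Of the 13786 Igkc UMIs in virgin beta-like cells, 52.4% were in 1 cell. Ppy and Sst were also used to assign the cells. Pde5a was therefore the lowest in that order only once these 5 genes were set aside.

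The Pde5a difference ran through the whole distribution of beta-like cells. In the virgin library 20.6% of beta-like cells had no Pde5a UMI and 7.73% had 6 or more, with a maximum of 17. In the multipara library 43.2% had none and 1.17% had 6 or more, with a maximum of 9. The mean was 2.25 UMIs per cell against 1.08. If every cell of a library had carried Pde5a at that library's level, counting alone would have left 18% of virgin cells and 39.8% of multipara cells without a UMI. Both values were a little below the 20.6% and 43.2% seen, so Pde5a was spread slightly less evenly than that. For Pde10a the same calculation gave 21.6% and 29.4% while 32.2% and 39.3% of cells had no UMI. Pde10a was thus also spread less evenly over beta-like cells than counting alone would give, and by a wider gap.

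**Figure D2:**
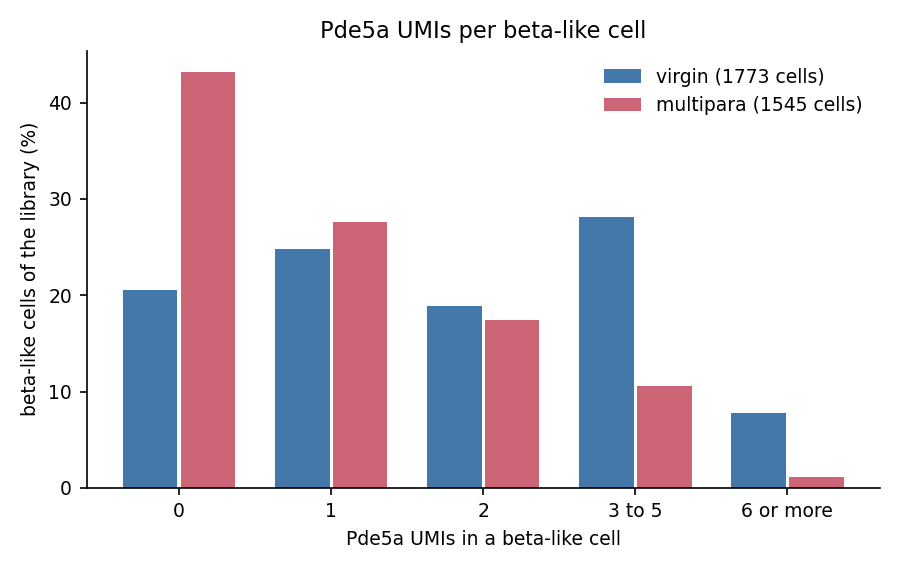
Percent of the beta-like cells of each library (y axis) with 0, 1, 2, 3 to 5, and 6 or more Pde5a UMIs (x axis), for 1773 virgin and 1545 multipara cells. Cells without a UMI made up 20.6% of virgin cells and 43.2% of multipara cells, and cells with 6 or more made up 7.73% and 1.17%.

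Multipara beta-like cells were slightly deeper, with a median of 32231 UMIs per cell against 30027 in virgin ones. Counted in all beta-like cells, a Pde5a UMI was present in 79.4% (77.5 to 81.3) of virgin cells and 56.8% (54.3 to 59.3) of multipara cells. Thinning each cell to 2500 UMIs, which left out 68 and 155 shallower cells, brought this to 16.7% (15 to 18.6) and 8.92% (7.47 to 10.5). In alpha-like cells, at a median depth of 16418.5 and 17395 UMIs, 8.37% and 8.76% had a Pde5a UMI, or 1.23% and 1.14% after thinning. T cell-like cells of the virgin library, at a median of 3406 UMIs, had none in 129 cells, which allows a share of cells with a UMI of up to 2.33% at that depth (3 counts of the total).

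The lower Pde5a level was seen in every subset of beta-like cells that was taken. These subsets divide the same counts from which Pde5a was chosen, so they describe that difference and are not separate evidence. Beta-like cells were divided into 3 classes by depth at 26552 and 35416.7 UMIs. The log2 ratio was -0.92 (88.2 to 46.5 CPM) in the shallowest, -0.99 (82.2 to 41.3 CPM) in the middle and -1.12 (69.0 to 31.7 CPM) in the deepest class. Within each library the level was lower in deeper cells. Cells with a UMI of Nupr1, a stress-induced gene, made up 648 of the 1773 virgin cells and 981 of the 1545 multipara cells. The ratio was -1.16 in cells without and -1.11 in cells with a Nupr1 UMI, so the difference was as large on both sides of that division.

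**Figure D3:**
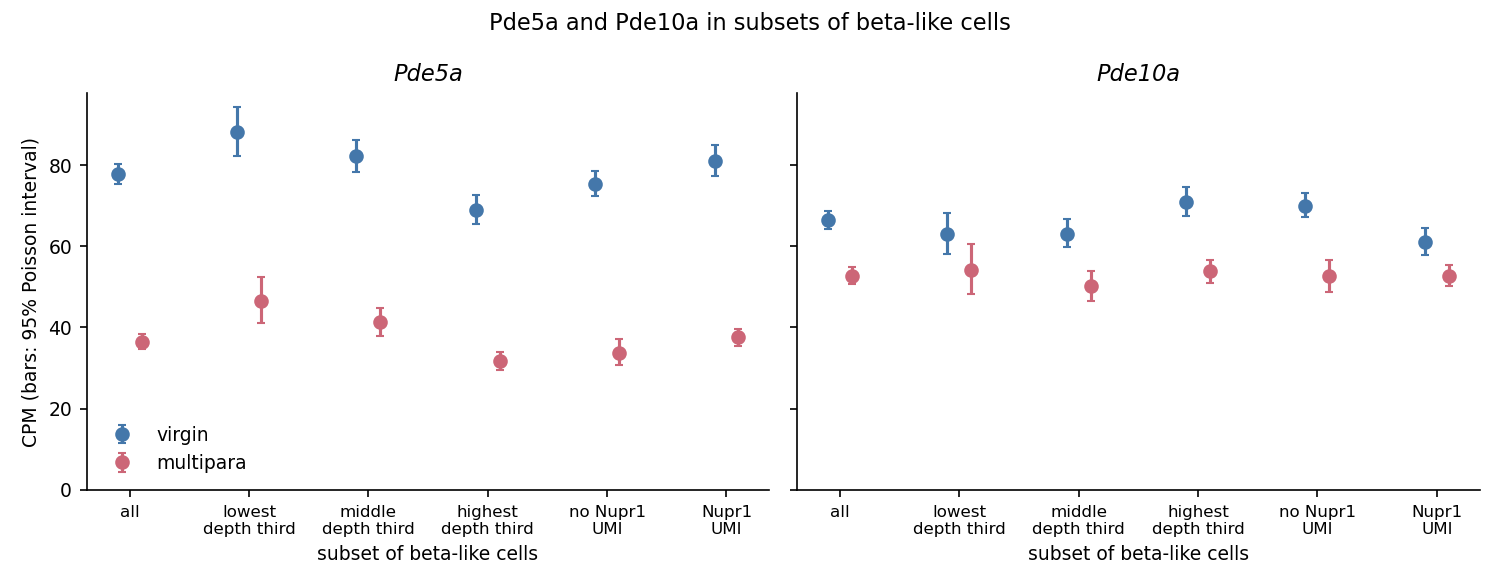
CPM of Pde5a (left) and Pde10a (right) in all beta-like cells, in 3 depth classes and in cells without or with a Nupr1 UMI, with 95% Poisson intervals as bars. For Pde5a the multipara points lay between 31.7 and 46.5 CPM and the virgin points between 69.0 and 88.2 CPM; for Pde10a the gap was smaller in each subset.

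Outside beta-like cells the highest Pde5a levels were in pericyte-like cells, at 268 CPM (205 to 344, 61 UMIs) in the virgin and 176 CPM (125 to 241, 39 UMIs) in the multipara library. The log2 ratio there was -0.60 (-1.22 to 0.00), an interval that ended at 0. In alpha-like cells the level was 5.81 CPM in each library (95 and 63 UMIs), with a ratio of 0.00 (-0.48 to 0.47). In delta-like cells it was 11.9 and 10.6 CPM, in endothelial-like cells 10.6 and 18.5 CPM and in PP-like cells 4.89 and 9.56 CPM, with intervals of the ratio that all contained 0. The order in the virgin library was thus pericyte-like, beta-like, delta-like, endothelial-like, macrophage-like, alpha-like and PP-like, and from delta-like cells downward the intervals of neighbours overlapped. In the multipara library pericyte-like cells again came first and beta-like cells next, at 36.5 CPM against 18.5 CPM in endothelial-like cells.

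RNA that strays between cell types can be sized only in part from these counts. Pericyte markers in beta-like cells summed to 0.62 and 0.68 CPM, which is 0.0045% and 0.0054% of their level in pericyte-like cells, with 0 and 2 of the 5 markers at 0. The assignment itself allowed a beta-like cell at most 2 of these markers. T cell markers were as low, at 0.0065% and 0.0042% of their own level. Those of B cells were at 0.78% and 0.22%, of macrophages at 0.24% and 0.30%, and the delta hormone at 0.54% and 0.23%. Free RNA from beta cells can be gauged only in part by insulin transcripts, which were also used to assign the cells. Their level in alpha-like cells was 0.90% of the beta-like level for virgin cells and 1.47% for multipara cells. That share would carry over 0.70 and 0.54 CPM of Pde5a, below the 5.81 CPM measured in alpha-like cells of each library. In delta-like cells it would give 0.92 and 0.88 CPM, against 11.9 and 10.6 CPM measured. The insulin share was higher in the multipara library in every other type, up to 6.26% in pericyte-like cells, and its part in the low values outside beta-like cells was not tested. Other endocrine types had to hold insulin under 5% of UMIs, and the remaining types under 10% hormone UMIs. Cells above those limits were left out, so these shares are capped and the carry-over could be larger.

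PDE10A hydrolyses both cyclic nucleotides and is best known from striatal neurons of the brain. Its gene (chr17:8525372-8986648, plus strand) was present in all 4 endocrine types. Delta-like cells had 190 CPM (478 UMIs) in the virgin and 166 CPM (376 UMIs) in the multipara library, alpha-like cells 111 CPM (1823 UMIs) and 123 CPM (1332 UMIs), beta-like cells 66.4 CPM (3412 UMIs) and 52.7 CPM (2409 UMIs), and PP-like cells 23.9 and 19.6 CPM (44 and 39 UMIs). That order held in both libraries, with no overlap between the intervals of neighbouring endocrine types. The beta-like level was lower in the multipara library by a log2 ratio of -0.33 (-0.41 to -0.26), and the alternatives of processing gave -0.35 to -0.23. The alpha-like level was slightly higher, at 0.14 (0.04 to 0.24), and that difference was 0.00 when cells were thinned to one depth. The delta-like ratio was -0.19 (-0.39 to 0.00). Pericyte-like cells held 83.4 CPM (19 UMIs) and 167 CPM (37 UMIs), a ratio of 1.0 (0.17 to 1.88) that rests on few molecules.

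PDE3B hydrolyses cAMP and is inhibited by cGMP, and it carries the antilipolytic action of insulin in adipocytes. The gene (chr7:114415281-114539251, plus strand) was found in all 4 endocrine types. In beta-like cells it stood at 37.8 CPM (1941 UMIs) in the virgin and 34.1 CPM (1557 UMIs) in the multipara library, a log2 ratio of -0.15 (-0.24 to -0.05). The alpha-like levels were 45.6 and 36.3 CPM, a ratio of -0.33 (-0.51 to -0.15), and the delta-like levels 72.7 and 62.2 CPM, a ratio of -0.22 (-0.55 to 0.10). Pde3b was thus lower in the multipara library in 3 endocrine types, by little. The median over all genes was itself -0.09 in beta-like and alpha-like cells and -0.07 in delta-like cells. The delta-like interval contained 0, and in beta-like cells the ratio came within 0.05 of 0 under another scaling. PP-like cells held 29.9 and 31.2 CPM. Among the other types T cell-like cells had the highest level, at 58.8 CPM (28 UMIs) in the virgin library, while endothelial-like cells had 1.41 and 1.91 CPM from 2 and 3 UMIs.

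PDE1A and PDE1C are activated by calcium and calmodulin, and so couple calcium entry to cyclic nucleotide breakdown. Pde1c (chr6:56069804-56569103, minus strand) was found mainly in endocrine cells, with 10.1 and 10.2 CPM in beta-like cells (521 and 465 UMIs), a log2 ratio of 0.01 (-0.18 to 0.19). Alpha-like cells had 301 and 190 UMIs, a ratio of -0.07 (-0.34 to 0.20), and delta-like cells 18.3 and 26.9 CPM (46 and 61 UMIs), a ratio of 0.56 (-0.02 to 1.14) that turned to -0.34 when cells were thinned. PP-like cells had 4.89 and 7.04 CPM (9 and 14 UMIs), and endothelial-like cells 6.35 CPM from 9 UMIs in the virgin library and no UMI in the multipara library. Pde1a (chr2:79834453-80129458, minus strand) was distributed otherwise. It reached 119 CPM (27 UMIs) and 104 CPM (23 UMIs) in pericyte-like cells, and beta-like cells gave 1 UMI in each library. Alpha-like cells had 17 and 6 Pde1a UMIs, and the 59 fibroblast-like cells of the virgin library, too few in the other library to compare, had 12 UMIs or 26.9 CPM.

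PDE4B and PDE4D are cAMP-specific and inhibited by rolipram. Pde4b (chr4:102087543-102607259, plus strand) was foremost a transcript of non-endocrine cells. In the virgin library pericyte-like cells had 277 CPM, macrophage-like cells 223 CPM, endothelial-like cells 179 CPM, T cell-like cells 109 CPM and B cell-like cells 70.5 CPM, against 10.6 CPM in beta-like cells. Endothelial-like cells differed between the libraries, at 179 CPM (254 UMIs) in the virgin and 269 CPM (422 UMIs) in the multipara library, a log2 ratio of 0.58 (0.36 to 0.81). The share of endothelial-like cells with a Pde4b UMI was 47.9% against 71.2%, and 33% against 51.0% after thinning to 2500 UMIs. Macrophage-like cells went the other way, from 223 CPM (114 UMIs) to 158 CPM (111 UMIs), a ratio of -0.50 (-0.89 to -0.11). It was -0.29 under TMM scaling, which moved the median of all genes in those cells from -0.11 to 0.09. In beta-like cells the Pde4b level was 10.6 CPM (544 UMIs) in the virgin and 12.6 CPM (576 UMIs) in the multipara library, a ratio of 0.25 (0.08 to 0.42) that turned to -0.20 when cells were thinned.

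Pde4d (chr13:108449948-109953461, plus strand) set beta-like cells apart from the other endocrine types. It stood at 2.37 and 2.36 CPM in beta-like cells (122 and 108 UMIs), against 30.3 and 30.5 CPM in alpha-like, 26.6 and 33.5 CPM in delta-like and 24.4 and 22.6 CPM in PP-like cells. The intervals of the alpha-like, delta-like and PP-like levels overlapped one another in both libraries and none reached the beta-like level. The log2 ratio between the libraries was -0.01 (-0.39 to 0.38) in beta-like cells, with -1.88 to 0.16 over the alternatives, and 0.01 (-0.20 to 0.21) in alpha-like cells.

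PDE7A, PDE8A and PDE8B are cAMP-specific enzymes of high affinity, and PDE7A is known from T lymphocytes. Pde7a (chr3:19223108-19311322, minus strand) had its highest levels in T cell-like cells, at 79.8 and 65.2 CPM, and B cell-like cells, at 55.7 and 52.1 CPM. In the endocrine types it was low, and lower in the multipara library in all 4. The levels were 3.64 CPM (187 UMIs) and 2.56 CPM (117 UMIs) in beta-like cells, a log2 ratio of -0.51 (-0.85 to -0.16) that came to 0.09 when every cell was given equal weight. They were 9.60 CPM (157 UMIs) and 6.36 CPM (69 UMIs) in alpha-like cells, a ratio of -0.59 (-1.02 to -0.18). Delta-like cells had 23 and 8 UMIs, a ratio of -1.37 (-2.74 to -0.16), and PP-like cells 16 and 8 UMIs, a ratio of -1.11 (-2.54 to 0.20). Endothelial-like cells had 21 and 7 UMIs, a ratio of -1.73 (-3.21 to -0.45), while in T cell-like cells the ratio was -0.29 (-1.41 to 0.71).

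Pde8a (chr7:81213596-81334533, plus strand) was at 19.3 CPM (994 UMIs) and 18.1 CPM (825 UMIs) in beta-like cells, a log2 ratio of -0.10 (-0.23 to 0.04). Its highest levels were in endothelial-like cells, at 69.1 and 54.1 CPM (98 and 85 UMIs), a ratio of -0.35 (-0.79 to 0.08). Pde8b (chr13:95024454-95250336, minus strand) was near the limit of detection in endocrine cells, with 32 and 52 UMIs in all beta-like cells, or 0.62 and 1.14 CPM, a ratio of 0.87 (0.21 to 1.55). Pericyte-like cells had 2 and 13 Pde8b UMIs, or 8.78 and 58.7 CPM, a ratio of 2.74 (0.60 to 5.93). The exons of Pde8b share 447 bases with the antisense gene Gm48420, which had 12 and 10 UMIs in beta-like cells, and those of Pde7a share 48 bases with the antisense gene Gm16093, which had none.

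**Figure D4:**
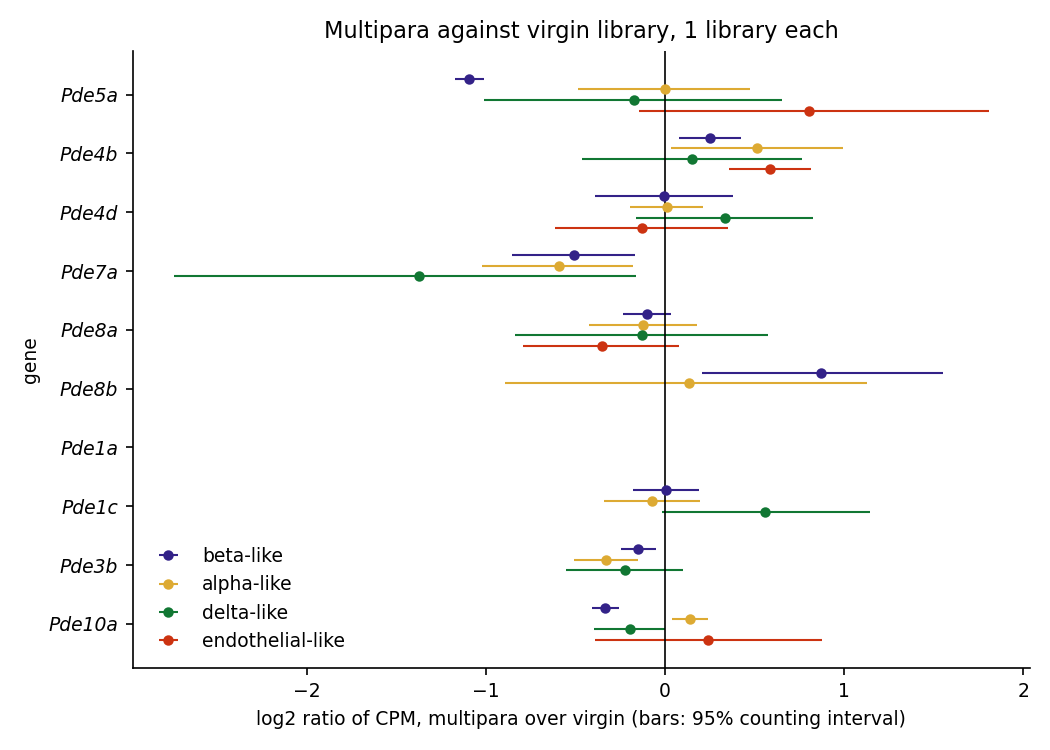
Log2 ratio of CPM, multipara over virgin (x axis), for each phosphodiesterase gene (y axis) in beta-like, alpha-like, delta-like and endothelial-like cells, with 95% counting intervals as bars; genes with fewer than 30 UMIs over both libraries in a type are left out. The Pde5a point of beta-like cells stands at -1.09, while its alpha-like point lies at 0.00.

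The members were also counted beside all genes. In beta-like cells 8 of the 10 had at least 100 UMIs. Of these 8, Pde5a alone was at least 1.5-fold lower and none was at least 1.5-fold higher, where 3.48% and 1.48% of all 10913 genes were (380 and 162 genes, or 257 and 236 under TMM scaling). Their median log2 ratio was -0.12 beside -0.09 over all genes. In alpha-like cells 8 members passed the minimum and Pde7a alone was 1.5-fold lower, beside 2.26% of 9439 genes lower and 0.773% higher. In delta-like cells 4 passed and in endothelial-like cells 3, and none was 1.5-fold lower or higher, beside 2.11% and 2.0% of genes lower and 1.04% and 1.86% higher. Pde4b in endothelial-like cells was just short of that fold. In pericyte-like cells 2 members passed and Pde5a was 1.5-fold lower, beside 2.28% of 657 genes lower and 3.96% higher, and their median ratio was -0.52 beside -0.03 over all genes. PP-like cells had Pde3b alone past the minimum, not past the fold, beside 2.38% lower and 0.633% higher, and macrophage-like cells had Pde4b alone, at -0.50 beside a median of -0.11 over all genes and not past the fold, beside 9.08% lower and 3.82% higher. T cell-like and B cell-like cells had too few UMIs for any member to pass. Under TMM scaling Pde7a in alpha-like cells came to -0.50 and Pde5a in pericyte-like cells to -0.56, both short of that fold, and Pde4b in endothelial-like cells came to 0.63, past it.

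The other genes of cyclic nucleotide signalling were read from lists drawn up with earlier results of these data known. Of 15 further genes named as phosphodiesterases, not all of them for enzymes of cyclic nucleotides, 4 had at least 100 UMIs in beta-like cells. Pde7b, a cAMP-specific relative of Pde7a, was 0.89 CPM (46 UMIs) in the virgin and 2.32 CPM (106 UMIs) in the multipara library, a log2 ratio of 1.37 (0.86 to 1.91). It was the 1 gene of that list past 1.5-fold. Pde12, whose product acts on oligoadenylates rather than cyclic nucleotides, was at -0.40 (-0.62 to -0.17), Pde4a at -0.17 and Pde6d at 0.03.

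The cyclases, which make the substrate, had 5 of 20 genes past the minimum and none past 1.5-fold, with a median of -0.40 beside -0.09 over all genes. Adcy9 was 19.7 and 17.2 CPM, at -0.20 (-0.33 to -0.06), and Adcy6 8.13 and 6.17 CPM, at -0.40 (-0.62 to -0.18). The guanylate cyclase receptor genes Gucy2c and Npr2 were at -0.40 (-0.72 to -0.10) and -0.55 (-1.10 to -0.03), and Npr1 at 0.14 (-0.20 to 0.48). Thus 4 of the 5 were lower in the multipara library, each by less than 1.5-fold, where the median over all genes was itself negative.

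Of 20 genes for kinase subunits, exchange factors and channels on which cyclic nucleotides act, 12 passed the minimum, with a median of -0.22. At least 1.5-fold lower was 1 of them and at least 1.5-fold higher 1, beside 3.48% and 1.48% of all genes. The regulatory kinase subunit gene Prkar1a was 180 and 184 CPM, at 0.03 (-0.01 to 0.07), whereas the catalytic subunit gene Prkacb was 148 and 106 CPM, at -0.48 (-0.53 to -0.43). Rapgef4, the gene of EPAC2, was at -0.34 (-0.45 to -0.23). Prkg2, for a cGMP-dependent kinase, had 89 and 49 UMIs, at -0.69 (-1.22 to -0.17). The pacemaker channel gene Hcn4 was at -0.48 (-0.72 to -0.24). Prkar1b was at -0.17 (-0.27 to -0.07).

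Upstream, 17 of 26 receptor and G protein genes passed, none past 1.5-fold, with a median of -0.08. Gnas, for the stimulatory G protein, was 625 and 541 CPM, at -0.21 (-0.23 to -0.19), and Gnai2, for an inhibitory one, 260 and 308 CPM, at 0.24 (0.21 to 0.28). Adra2a and Gnao1 were both at -0.09, Adora1 at -0.45 and Galr1 at -0.40. Glp1r, the incretin receptor gene, was at 0.28 (-0.06 to 0.62), an interval that contained 0. Downstream, 17 of 20 genes for CREB family factors and transcripts that cAMP induces passed, none past 1.5-fold, with a median of -0.09 beside -0.09 over all genes. Fos was at -0.09, Fosb at 0.07, Junb at -0.05 and Dusp1 at 0.23. Crem was at 0.32 (0.20 to 0.45), Sik1 at -0.46 (-0.65 to -0.27), and Crtc2 and Atf1 at -0.26.

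**Figure D5:**
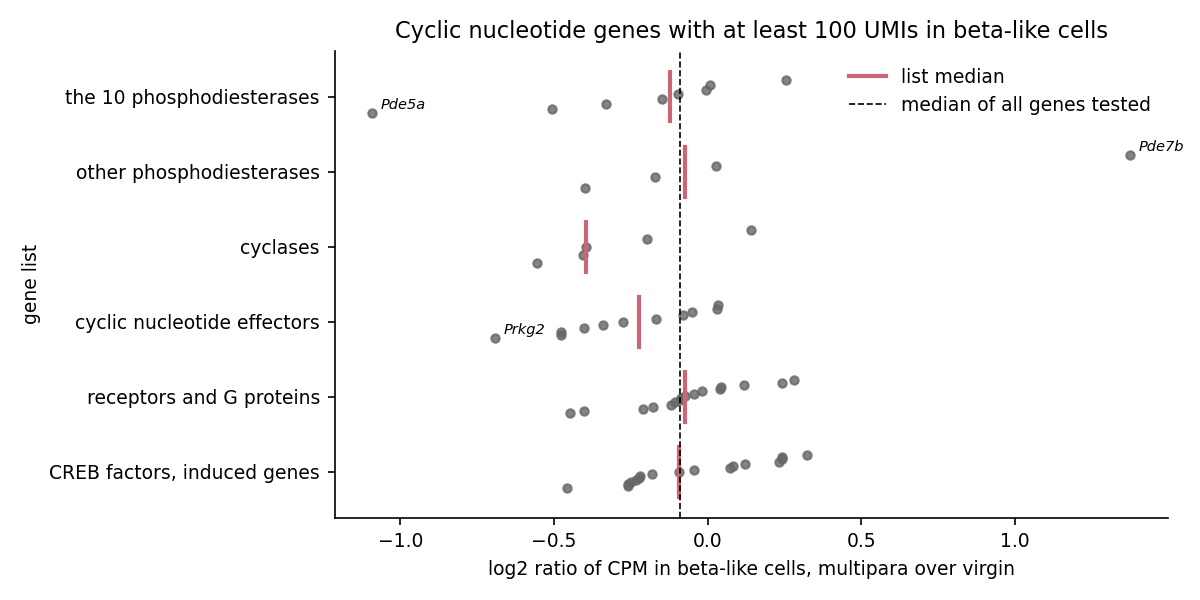
Log2 ratio of CPM in beta-like cells, multipara over virgin (x axis), for genes of 6 lists (y axis) with at least 100 UMIs, without 2 genes that are not reported here; red bars are list medians over all genes tested in a list, and the dashed line is the median of all genes tested. The list medians lay between -0.40 and -0.07 beside -0.09 for all genes, and of the genes drawn Pde7b and Pde5a stood farthest out.

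The element through which cAMP acts on transcription was looked for in the 250 bases upstream of the start sites that RefSeq gives on GRCm38.p6, where 21 promoter entries covered 8 of the 10 members. Pde3b and Pde7a had no entry. The full cAMP response element TGACGTCA was in no member and in 1.55% of all 32851 promoters. Its half-site TGACG, on either strand, was in 1 entry each of Pde1a, Pde4b and Pde8a and in 17.8% of all promoters. Neither Pde5a nor Pde10a held the half-site. The windows that follow show where the half-sites lie (on the minus strand the 5′ end of a window has the higher coordinate). For Pde5a the window shows a GC box, GGGCGG, a motif that 32.7% of promoters held on either strand. Entries of Pde8a, Pde8b and Pde10a held a GC box too, which is not marked here. Capitals mark the motif, and CGTCA is the half-site read on the other strand.
Pde1a, chr2:80039051-80039080, minus strand: gtaacttcagccCGTCAttcctcagtaatt
Pde4b, chr4:102421509-102421538, plus strand: gatttggctgcaCGTCAattttctcatctg
Pde8a, chr7:81213169-81213198, plus strand: gctgctttgcatTGACGccagcagccgctg
Pde5a, chr3:122729064-122729093, plus strand: ggggacctggagGGGCGGggctgagcgagc
The motifs start 166, 34, 84 and 82 bases upstream of their RefSeq start sites. The Pde1a, Pde4b and Pde5a windows lie inside the gene spans given above, since those spans begin further upstream than these start sites. A match describes these letters only, and says nothing of whether a factor binds there.

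Genes whose distribution over the 18 levels, 9 types in 2 libraries, was most like that of a member were named by Pearson's r of log2(CPM + 1), as a description over points that share libraries and depth. For Pde5a these were Lurap1l (0.88), Lgalsl (0.88) and Farp1 (0.87). For Pde10a they were Ppp1r37 (0.94), Apbb1 (0.93) and Mrfap1 (0.93), and for Pde1a they included Rgs6 (0.99) and Pth1r (0.98). Pde4b was most like Mat2a and Ehbp1l1 (both 0.97), Pde7a like Sept1 (0.92), Pde8b like Eya4 (0.92), Pde4d like Paip2 (0.90) and Pde3b like Cacna1d (0.86). The Pde5a and Pde3b values were the lowest of these leading matches, so among genes reaching 20 CPM in some type none traced their distribution as closely as Rgs6 traced that of Pde1a.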

How the data were processed

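The values analysed are unnormalised UMI counts of each gene in each barcode, as the authors deposited them. The submitters' processing notes name Cell Ranger 3.1.0, Seurat 3.0 and the builds GRCm38 and mm10. Cells were kept by the study's filter, with over 200 but under 6000 genes, below 60000 UMIs and below 10% of UMIs mitochondrial. Scrublet (scanpy 1.11.5) then removed 61 virgin and 44 multipara doublets (1.39% and 1.30%), so some can remain. An endocrine cell had 1 hormone at 10% or more of its UMIs, each other hormone under 5% and at most 2 markers of any other class. Another cell had at least 3 markers of its class, more than of any other, and under 10% hormone UMIs. These limits were set after the hormone and marker counts were seen and without the members. The members and gene lists were chosen with earlier results of these data known.

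UMI counts were summed per type and library and divided by their total. CPM intervals are exact Poisson, shares have exact Clopper-Pearson intervals and ratios exact binomial ones. The ratios and their intervals were tested on simulated Poisson counts. That test cannot show how they behave for counts spread unevenly over cells. No p-value was computed. Named list genes were the 4 with the highest mean CPM and the 4 with the largest absolute ratio in beta-like cells per list among genes with at least 100 UMIs. Similar genes were the 3 with the highest correlation, for members reaching 50 CPM, among genes reaching 20 CPM. A few genes that these rules name are not reported here. Gene locations are from GENCODE M21, which held 99.6% of the gene identifiers. Alternatives were TMM (edgeR 4.0.16 in R 4.3.3) and median-of-ratios scaling, other cell filters and gates, equal cell weights, thinned cells and other minimums. Python 3.11.15, numpy 2.4.6, scipy 1.17.1 and pandas 2.3.3 were used.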

Additional observations from a re-analysis of the deposited data

Results flagged for a closer look

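Pde4b and Pde10a differed in opposite directions in different cell types, with counting intervals that all excluded 0. Those intervals take no account of uneven spread over cells, which Pde10a showed in beta-like cells. Pde4b had a log2 ratio of multipara over virgin of 0.58 in endothelial-like cells and -0.50 in macrophage-like cells. Pde10a was at -0.33 in beta-like cells and 0.14 in alpha-like cells. Neither difference between cell types was tested, since each group has 1 library. The Pde10a ratio in alpha-like cells was 0.00 when cells were thinned, whereas both Pde4b ratios kept their sign under every alternative.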

How the results depend on the processing

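Of the 59 ratios of members by cell type, 34 kept their sign under every alternative and 25 changed it under at least 1, mostly ratios close to 0 or from few UMIs. The Pde5a ratio in beta-like cells stayed between -1.16 and -0.92 (-0.99 with TMM or median-of-ratios scaling, -0.96 thinned, and -0.92 and -0.99 in the shallowest and middle depth classes). Its shares of cells with a UMI came to 16.7% and 8.92% when thinned. TMM scaling moved the median of all genes in beta-like cells from -0.09 to 0.01. The 380 genes lower in beta-like cells became 178 of 4881 tested when thinned, 1451 of 13931 with a minimum of 10 UMIs, 2143 of 15829 with 1 UMI in each library and 104 at 2-fold. The 162 higher genes became 46, 549, 1045 and 59 in the same order, and 654 with cells weighted equally. The median of the other phosphodiesterases became 0.32 both with cells weighted equally and when thinned, the latter from 1 gene, and that of the CREB list 0.11 when thinned. The thinned counts come from fewer genes tested, the lower minimums add sparser genes and the 2-fold limit is stricter, while the equal-weight count comes from the same 10913 genes. Its cause, and that of the other changes, was not tested. No paired analysis was possible because each group has 1 library. With 1 library per group the variation between mice is unknown, and types with few cells, such as pericyte-like cells, show only large differences.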
